A study of Rattus norvegicus with 61 samples.

Results

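Among the 31 cerebellar libraries in this rat RNA sequencing series, 5 held the highest levels of ribosomal protein transcripts, and the other transcripts of these 5 are described here. The 5 libraries were selected on a measured value, the mean of log2 CPM (reads of a gene scaled to a common library total) over genes of the Rpl and Rps families. They are named by exposure group and animal number: high 43, high 28, high 59, sham 48 and medium 24. They were compared with 24 other cerebellar libraries, and low 22 and medium 40 were left out by the rule. The whole series holds 61 libraries, of which 30 are striatal. All animals were male Sprague-Dawley rats that received a subcutaneous implant at postnatal day 28 and carried it for 28 days. The implants held 4-OH-PCB52, a polychlorinated biphenyl carrying a hydroxyl group, at a loading of 1% in the low, 5% in the medium and 10% in the high group, and none (0%) in the sham group. Tissue came as punches of the cerebellum or the striatum.

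Ribosomal proteins form the large (Rpl) and small (Rps) subunits of the cytoplasmic ribosome, and their short, abundant mRNAs typically begin with a run of pyrimidines, the terminal oligopyrimidine tract, through which the mTOR pathway controls their translation. In the cerebellar cortex, Purkinje cells are the output neurons, granule cells the most numerous neurons, and Bergmann glia the astrocytes that surround Purkinje dendrites. Many neuronal mRNAs for ion channels, scaffolds and adhesion proteins are long, whereas those for respiratory chain subunits and small signalling proteins are short.

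The ribosomal mean, over the 74 Rpl and Rps genes tested, was 12.06 log2 CPM for high 43. It was 11.06 for high 28, 10.65 for high 59, 10.09 for sham 48 and 9.91 for medium 24. The 24 others ran from 7.18 to 8.78, with a median of 7.39. Just below medium 24 came low 22 (8.84, left out), medium 41 (8.78), medium 40 (8.71, left out) and low 6 (8.70). Ribosomal protein transcripts made up 7.26 to 18.1% of the reads in the 5 libraries and 1.35 to 3.89% in the 24. The low 22 library had a mean of 3.83 log2 CPM over a list of granule cell transcripts and medium 40 one of 6.29, against 7.44 to 8.54, median 8.41 in the 24.

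The 5 libraries differed from the 24 in depth as well. Their totals were 9068313 to 10994625 reads, against 5420458 to 9488258, and the difference of the means, 2863800 reads, passed an exact two-sided permutation test (p = 7.58e-05). The totals include the ribosomal reads used in the selection, 7.26 to 18.1% of reads in the 5 and 1.35 to 3.89% in the 24. They are therefore not separate from the selection, and totals without these reads were not tested. TMM scaling factors were 0.513 (high 43) to 0.897 in the 5 and 1.02 to 1.10 in the 24. CPM values are given after these factors, and a factor below 1 raises them above the plain share of reads. The percentages of reads are given without the factors. In high 43, 12777 genes had a read, and 13227 to 13344 in the other 4 libraries, against 13017 to 13444 in the 24. Among the 5 were 1 sham, 1 medium and 3 high libraries, and among the 24 were 6 sham, 7 low, 6 medium and 5 high libraries. The share of high libraries was not distinguishable between the sets (Fisher's exact test, two-sided p = 0.112). Of the transcripts that define the cerebellum, Gabra6, which encodes a granule cell subunit of GABA receptors, was present in all 5 at 507 to 838 CPM. Cbln1, a synapse organiser that granule cells secrete, was at 1219.9 to 1939.8 CPM. Of 25 granule cell transcripts tested, however, 21 had a lower mean in the 5 than in the 24, as described below. The number in a label was taken as the animal, with 1 library per region, and p-values measure the spread between these libraries.

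Since the 5 libraries were selected on their own values, the comparison with the 24 is a description without a test. A gene is called set apart where the means of log2 CPM (prior count 2) differed by at least 1 and all 5 values lay on the same side of all 24. Of 11946 genes, 2332 were set apart higher (19.5%) and 2409 lower (20.2%), so that about as many transcripts were low as were high. The median difference over all genes was -0.05, and counts and medians of lists are to be read against these values. Scaling to total counts alone moved that median to -0.53 and the numbers to 1415 higher and 3513 lower, and differences below are with TMM. Within the high loading alone (3 against 5 libraries), 3361 genes were set apart higher and 3680 lower. With fewer libraries the rule is easier to meet, so these counts cannot be compared with those above.

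All 44 tested large subunit and all 30 small subunit genes were set apart higher, which the selection itself fixes. Rps19, a small subunit protein, was at 8057, 4164, 2929.9, 1943 and 1763 CPM in high 43, high 28, high 59, sham 48 and medium 24, the order kept below. The 24 others had a lowest of 190.0, a median of 243 and a highest of 748 CPM, so the lowest of the 5 was above the highest of the others, and the difference was 3.52 (SE 0.42) on the log2 scale. Rps16, also of the small subunit, was at 7883, 3018, 2305, 1619 and 1418 CPM, against a lowest of 169, a median of 203 and a highest of 622 CPM in the 24, a difference of 3.46 (SE 0.45). Rpl41, the smallest protein of the large subunit, was at 4587, 2311, 1697, 1285 and 1044 CPM, against a lowest of 124, a median of 144 and a highest of 425 CPM, a difference of 3.47 (SE 0.39). In each of these genes high 43 stood far above the rest, and medium 24 was nearest to the 24. The median difference was 3.12 over the large and 3.24 over the small subunit list, and the lowest single difference was 2.29.

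**Figure D1:**
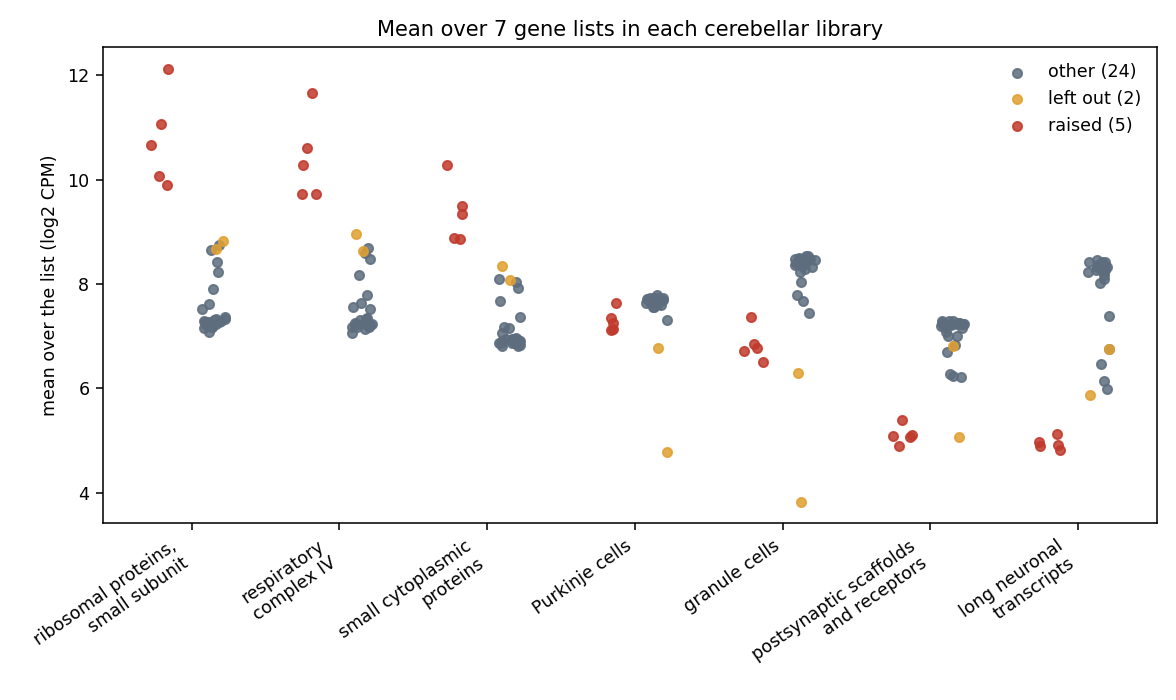
Mean log2 CPM over 7 gene lists (x axis) in each of 31 cerebellar libraries (points), coloured by set: 5 raised, 24 other and 2 left out. The 5 raised libraries lie above the 24 in the ribosomal, complex IV and small cytoplasmic lists, and below them in the postsynaptic list (4.89 to 5.40 log2 CPM) and the long transcript list (4.81 to 5.13 log2 CPM).

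The start regions of these genes were examined for the oligopyrimidine tract, since it is the sequence feature ribosomal protein genes are known for. The windows below, matched by gene ID and taken from RefSeq on the GRCr8 build, span 30 bases before and 20 bases from the annotated start. A run is a C within 5 bases of the start that is followed by at least 4 bases that are C or T, and capitals mark the longest run of a window. The first 4 are the ribosomal protein genes with such a run and the largest differences, followed by Rps19, which ranks above them in difference and has no run, a translation factor, a ribosomal fusion gene, 2 respiratory genes without a run, a Purkinje transcript and the transcript with the largest difference downward.
Rps14 (chr18:56498230-56498279, forward strand): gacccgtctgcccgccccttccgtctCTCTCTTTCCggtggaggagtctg
Rps15 (chr7:10068096-10068145, reverse strand): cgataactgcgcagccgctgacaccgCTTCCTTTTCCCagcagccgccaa
Rps23 (chr2:23814487-23814536, forward strand): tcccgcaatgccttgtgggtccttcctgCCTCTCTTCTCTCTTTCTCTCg
Rps27 (chr2:177964587-177964636, reverse strand): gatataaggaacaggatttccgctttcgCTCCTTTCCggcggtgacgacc
Rps19 (chr1:89608658-89608707, forward strand): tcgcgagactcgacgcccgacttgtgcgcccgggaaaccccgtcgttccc
Eef1b2 (chr9:72074061-72074110, forward strand): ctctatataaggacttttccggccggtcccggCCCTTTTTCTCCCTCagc
Fau (chr1:212779483-212779532, forward strand): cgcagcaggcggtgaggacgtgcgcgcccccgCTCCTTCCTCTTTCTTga
Uqcr10 (chr14:83791895-83791944, reverse strand): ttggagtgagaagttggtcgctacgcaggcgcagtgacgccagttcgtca
Cox8a (chr1:213833604-213833653, reverse strand): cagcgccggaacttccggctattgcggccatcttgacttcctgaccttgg
Pcp2 (chr12:6481288-6481337, reverse strand): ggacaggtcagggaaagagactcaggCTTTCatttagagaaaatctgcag
Cacna1e (chr13:69444791-69444840, reverse strand): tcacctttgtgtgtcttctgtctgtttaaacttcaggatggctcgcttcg
A run was present in 37 of 59 ribosomal protein genes with a RefSeq window (62.7%), against 1662 of 9699 (17.1%) over all genes tested. Among the other genes set apart higher it was present in 375 of 1908 (19.7%), and among those set apart lower in 310 of 1939 (16.0%). In Uqcr10 and Cox8a, which were also high in the 5 libraries, no run begins within 5 bases of the start, while one begins just beyond that limit in Cox8a. Only the strand of the gene was searched, and a match describes letters, not use of a start site.

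Other parts of the translation machinery were high with the ribosomal proteins, but not uniformly. Of 20 elongation factors and further mRNAs known for the tract, 11 were set apart higher and 0 lower, with a median difference of 1.52. A run by the rule above was found in 5 of the 15 that had a RefSeq window (33.3%). Tpt1, a growth-related protein that binds tubulin and calcium, was at 8228, 4186, 3223, 2432 and 1926 CPM, against 306 to 946 CPM in the 24. Eef1b2, an exchange factor of elongation, was at 2014, 1049, 869, 564 and 586 CPM, against 108 to 286 CPM. In both genes all 5 libraries were above the 24, with high 43 highest. Fau, which encodes a ribosomal protein fused to a relative of ubiquitin, differed by 3.38 (SE 0.43). Of 22 initiation factors, 7 were set apart higher and 2 lower, and their median of 0.44 was -0.06 without TMM. Of the factor eIF3, the subunits Eif3i (2.16) and Eif3m (2.08) stood high and Eif3j was not set apart (0.34), while the largest subunit, Eif3a, was at 40.7, 41.03, 39.6, 35.95 and 63.8 CPM, below the 105 to 234 CPM of the 24. Of 33 mitochondrial ribosomal proteins, 31 were set apart higher (median 2.51), led by Mrpl23 with a difference of 3.05 (SE 0.37). Of 23 ribosome assembly factors, 9 were set apart higher and 1 lower, and Nop10, a small protein of the pseudouridine-adding particles, differed by 2.98.

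Nuclear-encoded subunits of the respiratory chain were high in the 5 libraries. Set apart higher were 31 of 33 complex I transcripts (median 2.80), 12 of 14 of complexes II and III (2.04), all 11 of complex IV (2.98) and 16 of 17 of ATP synthase (2.63). No member of these 4 lists was set apart lower. Uqcr10, a small subunit of complex III, had the largest difference among genes outside the ribosomal families with a mean of at least 4 log2 CPM, 3.57 (SE 0.58). It was at 1056, 258, 246, 99.9 and 175 CPM, against a lowest of 14.5, a median of 18.5 and a highest of 65.1 CPM in the 24, and sham 48 rather than medium 24 was lowest of the 5. Cox8a, a complex IV subunit, was at 6836, 3035, 2466, 1625 and 1475 CPM, against a lowest of 204, a median of 252 and a highest of 735 CPM. Ndufa1 of complex I differed by 3.25 (SE 0.41) and Atp5f1e of ATP synthase by 3.24 (SE 0.41). The mitochondrially encoded mRNAs were not analysed here.

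Transcripts of other small proteins and of further protein complexes were high as well. Of 51 small cytoplasmic proteins, 46 were set apart higher (median 2.53), together with 15 of 15 Sm and related proteins of the spliceosome (2.45). So were 10 of 11 subunits of RNA polymerase II (2.34) and 20 of 30 proteasome subunits (1.41). The polymerase subunit not set apart was Polr2b (-0.93), and 3 proteasome subunits had a negative difference. Tmsb10, an actin-binding peptide, was at 506, 338, 259, 266 and 176 CPM, against a lowest of 16.1, a median of 24.5 and a highest of 99.1 CPM in the 24, a difference of 3.30 (SE 0.29). Its order over the 5 libraries was that of the ribosomal mean except that sham 48 stood above high 59. Other genes with large differences were the lectin Lgals1 (3.49 (SE 0.29)), the G protein subunit Gng11 (3.48 (SE 0.33)), the secreted factor Metrn (3.44 (SE 0.45)), the matrix protein Mgp (3.41 (SE 0.25)) and the phosphatase inhibitor Ppp1r1a (3.38 (SE 0.33)). Lgals1, Gng11, Mgp and Ppp1r1a were highest in sham 48, whereas Metrn was highest in high 43. The sham 48 library was also the highest of the 5 on the meningeal and blood lists described below. Rpl37l1 and Rpl17-ps16, named as ribosomal relatives or a pseudogene, also ranked here, and reads of near-identical copies may be split between them and their parent genes. Transcript and protein lengths were not analysed here, so these groups are described by the proteins they encode.

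Among genes with a mean of at least 4 log2 CPM, the largest differences were downward, and they included neuronal channels and cytoskeletal proteins. Cacna1e, the pore of R-type calcium channels, was at 0.821, 4.85, 1.496, 1.49 and 1.84 CPM, against a lowest of 11.5, a median of 201 and a highest of 259 CPM in the 24, a difference of -6.00 (SE 0.46). All 5 libraries lay below the lowest of the 24, and within the 5 high 28, not medium 24, was highest. Nos1, the neuronal nitric oxide synthase, was at 0.411, 3.48, 1.73, 2.73 and 2.99 CPM, against a lowest of 19.4, a median of 158 and a highest of 237 CPM, a difference of -5.74 (SE 0.50). Map2, a microtubule protein of dendrites, was at 5.75, 12.9, 12.4, 10.04 and 13.3 CPM, against a lowest of 69.3, a median of 487 and a highest of 633 CPM, a difference of -5.13 (SE 0.29). The potassium channel Kcna2 (-5.12 (SE 0.35)), the Polycomb protein Phc3 (-5.05 (SE 0.41)), the coactivator Ppargc1b (-5.04 (SE 0.41)), the calcium pump Atp2b4 (-5.00 (SE 0.73)) and the kinase Hipk2 (-4.98 (SE 0.29)) were among the genes that followed, with Tulp4 (-5.26 (SE 0.49)). Of 34 transcripts listed as long neuronal mRNAs, 30 were set apart lower and all had a negative difference (median -2.86). The list also holds genes that are not particular to neurons. Of these, Trrap (-2.86), Ubr4 (-3.19) and Birc6 (-2.57) were set apart lower, and Dync1h1 (-2.19) was not set apart. Library means over the list were 4.81, 5.13, 4.90, 4.92 and 4.97 log2 CPM in the 5, against 5.98 to 8.46, median 8.27 in the 24. Unlike the ribosomal means, these 5 values lay close together, and high 28, second in the ribosomal mean, was highest. Of 28 ion channel transcripts, 22 were set apart lower and 1 higher (median -2.79), with the sodium channel Scn8a at 7.597 to 10.1 CPM against 36.8 to 309.7 CPM.

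Synaptic transcripts divided by the kind of protein. Of 29 transcripts of presynaptic release, 20 were set apart lower and 1 higher (median -2.38). Pclo and Bsn, giant scaffolds of the release zone, were at 10.3 to 19.5 CPM and 29.01 to 58.6 CPM, against 36.5 to 664 CPM and 62.1 to 774 CPM in the 24. Of 31 postsynaptic scaffolds and receptors, 25 were set apart lower and 0 higher (median -1.89). Shank1, a scaffold of the postsynaptic density, was at 12.5, 26.4, 21.5, 29.01 and 35.4 CPM, against a lowest of 118, a median of 505 and a highest of 637 CPM, a difference of -4.15 (SE 0.29). Grin2a, an NMDA receptor subunit, was at 0.992 to 1.74 CPM against 3.51 to 72.04 CPM, and Gria2, an AMPA receptor subunit, at 49.5 to 75.2 CPM against 130.0 to 523 CPM. Of 19 synaptic adhesion transcripts, 14 were set apart lower and 0 higher (median -2.12), led by the neurexin Nrxn3 with a difference of -3.67 (SE 0.28). By contrast, mRNAs for small proteins that are carried into dendrites or axons were high: 8 of 18 were set apart higher and 0 lower (median 1.26). They included the G protein subunits Gng13 (3.00 (SE 0.58)) and Gng3 (2.08 (SE 0.25)) and the tubulin regulators Stmn3 (2.02 (SE 0.22)) and Stmn1 (1.62 (SE 0.24)).

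Of 35 Purkinje cell transcripts, 7 were set apart higher and 13 lower, and the median difference was -0.45. The share set apart higher was near the 19.5% over all genes, and the share lower was above the 20.2% over all genes. Pcp2, a small regulator of G proteins found in Purkinje and retinal bipolar cells, was at 7216, 2463, 1816, 1552 and 1743 CPM, against a lowest of 284, a median of 340.5 and a highest of 885 CPM in the 24. All 5 libraries were above the 24, and high 43 was far above the other 4, giving a difference of 2.68 (SE 0.42). Car8, a carbonic anhydrase relative that binds the IP3 receptor, was at 7359, 2425, 2163, 2328 and 2340.2 CPM, against a lowest of 728, a median of 926 and a highest of 1812 CPM, a difference of 1.61 (SE 0.34). Its values were nearly level in 4 of the libraries, and high 43 alone stood apart from them. The calmodulin-binding Pcp4 was at 7071, 2653, 2301, 1145 and 1196 CPM, against a lowest of 238, a median of 279 and a highest of 706 CPM. The receptor that Car8 binds, Itpr1, had the opposite difference: it was at 1296, 800.1, 1116, 971 and 1119 CPM, against a lowest of 1457, a median of 3980.1 and a highest of 4687 CPM, or -1.75 (SE 0.15). Cacna1a, the P-type calcium channel, was also below the 24, at 106, 123, 88.5, 97.9 and 151 CPM, against a lowest of 208, a median of 1021 and a highest of 1106 CPM. Calb1, a calcium buffer, and Slc1a6, a glutamate transporter, overlapped the 24 with differences of 0.92 (SE 0.20) and 1.08 (SE 0.28). Pcp2, Pcp4 and Gng13 are also on the list of small dendritic mRNAs, and Shank1 on the postsynaptic list. The summed level of the Purkinje list was 15766 to 46323 CPM in the 5 libraries and 12454 to 17617 CPM in the 24. In bulk tissue, fewer cells of a type and less RNA per cell cannot be told apart. Why transcripts of the Purkinje list differed in opposite directions was not tested.

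**Figure D2:**
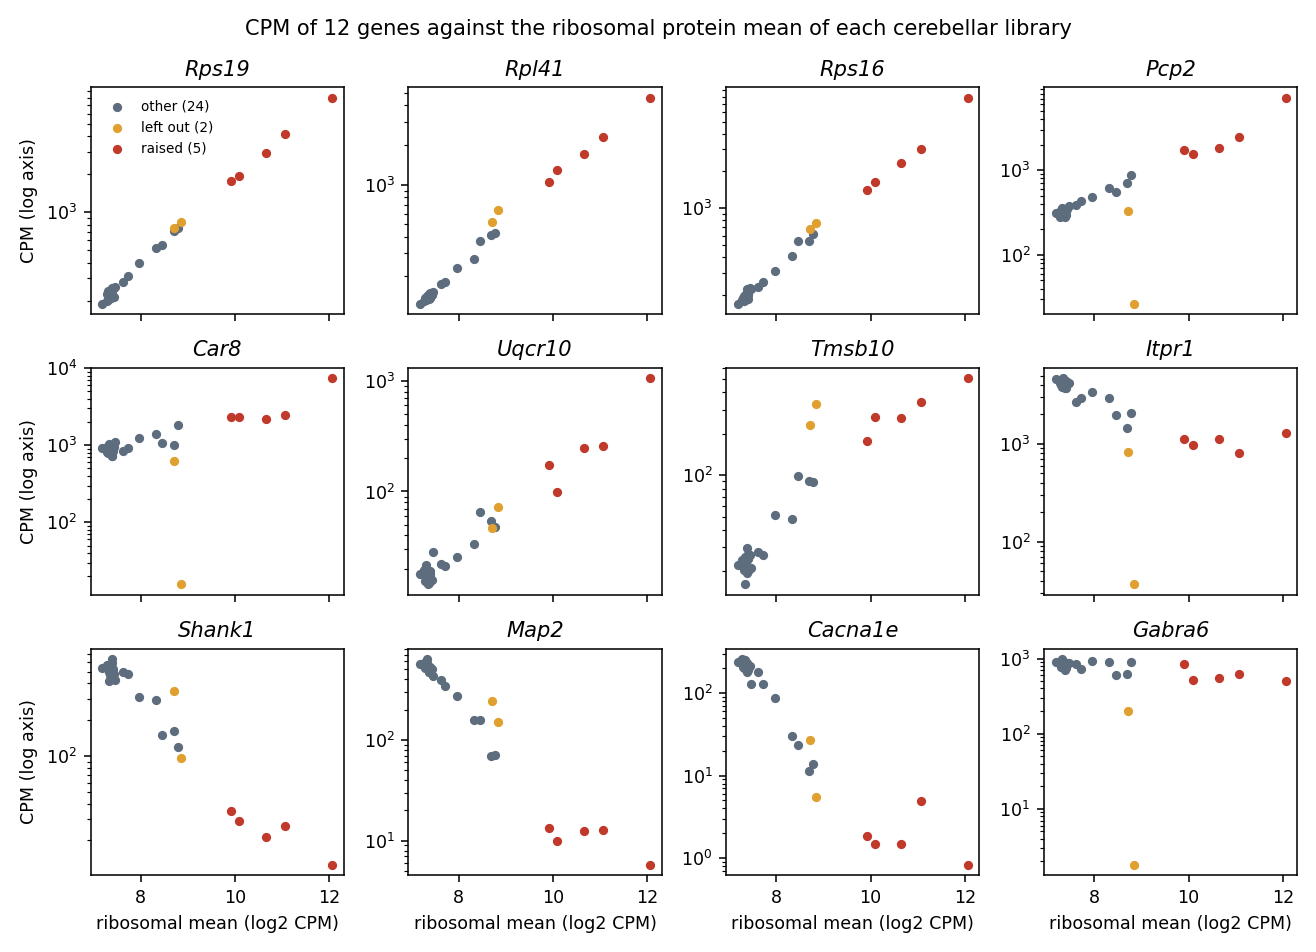
CPM of 12 genes (log y axis) against the ribosomal mean (x axis, log2 CPM) in each of 31 cerebellar libraries, coloured by set. The ribosomal genes, Pcp2, Car8, Uqcr10 and Tmsb10 have their 5 raised libraries above the 24, Itpr1, Shank1, Map2 and Cacna1e have them below, and Gabra6 (507 to 838 CPM) overlaps the 24 (601 to 986 CPM).

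Transcripts of other neurons of the cortex were mostly low. Of 25 granule cell transcripts, 13 were set apart lower and 0 higher (median -1.50). Gabra6 was at 507, 616, 555, 519 and 838 CPM, against a lowest of 601, a median of 852 and a highest of 986 CPM in the 24, and Cbln1 at 1359, 1501, 1352, 1219.9 and 1939.8 CPM, against a lowest of 1077, a median of 1246 and a highest of 1569 CPM. Both overlapped the 24, with differences of -0.46 (SE 0.14) and 0.19 (SE 0.12), the latter turning to -0.31 without TMM. Set apart lower were Fat2, a giant cadherin of granule cell axons, at 269.8, 200.3, 143, 189 and 197 CPM against a lowest of 285, a median of 1652 and a highest of 2123 CPM, and Cbln3, a partner of Cbln1, at 41.3, 93.01, 83.5, 88.02 and 159 CPM against a lowest of 203, a median of 524 and a highest of 608 CPM. Reln, the secreted positioning protein, differed by -3.23 (SE 0.22) and the transcription factor Nfix by -3.63 (SE 0.26). The granule list summed to 5746 to 8603 CPM in the 5 libraries and 6718 to 15027 CPM in the 24. Of 15 interneuron transcripts, 8 were set apart lower and 0 higher (median -1.75), with the receptor Kit at -3.39 (SE 0.50), while the neuropeptides Npy (2.99 (SE 0.51)) and Sst (2.56 (SE 0.39)) were high on average and overlapped the 24.

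Of 24 Bergmann glia and astrocyte transcripts, 3 were set apart higher and 7 lower, beside 19.5% and 20.2% of all genes, and transcripts in both directions are therefore not particular to the list. Apoe, the lipid carrier, was at 8294, 6601, 7397, 10494 and 6415 CPM, against a lowest of 1417, a median of 1617 and a highest of 5129 CPM, while Slc4a4, a bicarbonate transporter, was at 3.29, 12.7, 12.8, 11.8 and 23.5 CPM, against a lowest of 57.8, a median of 337 and a highest of 393 CPM. The small nuclear protein Hopx (2.54 (SE 0.22)) went with Apoe, and the glutamate transporter Slc1a2 (-2.94 (SE 0.22)) and the water channel Aqp4 (-1.78 (SE 0.25)) with Slc4a4. None of 23 oligodendrocyte transcripts was set apart in either direction, and Mbp, a major myelin protein, was at 2708, 5733, 3987, 1449 and 3484 CPM, against a lowest of 1945, a median of 3295 and a highest of 15258 CPM. Of 19 microglial transcripts, 6 were set apart higher and 1 lower, beside 19.5% and 20.2% of all genes. The lower one was the integrin Itgam (-2.11). Tyrobp, the adaptor of Trem2, was at 87.5, 63.8, 48.6, 61.99 and 33.00 CPM, against a lowest of 2.34, a median of 4.22 and a highest of 26.1 CPM, and Aif1, Fcer1g and C1qc were also higher (2.67, 2.56 and 2.44). The microglial receptors Csf1r, Cx3cr1 and P2ry12 overlapped the 24, with differences of -0.45 (SE 0.35), 0.16 (SE 0.19) and 0.05 (SE 0.18). Without TMM the differences of Cx3cr1 and P2ry12 were -0.32 and -0.42. Of 18 endothelial transcripts, 4 were set apart higher, near the 19.5% over all genes, and 2 lower, below the 20.2%. The junction protein Cldn5 was among the higher (1.65 (SE 0.16)) and the receptor Flt1 among the lower (-2.23 (SE 0.18)).

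**Figure D3:**
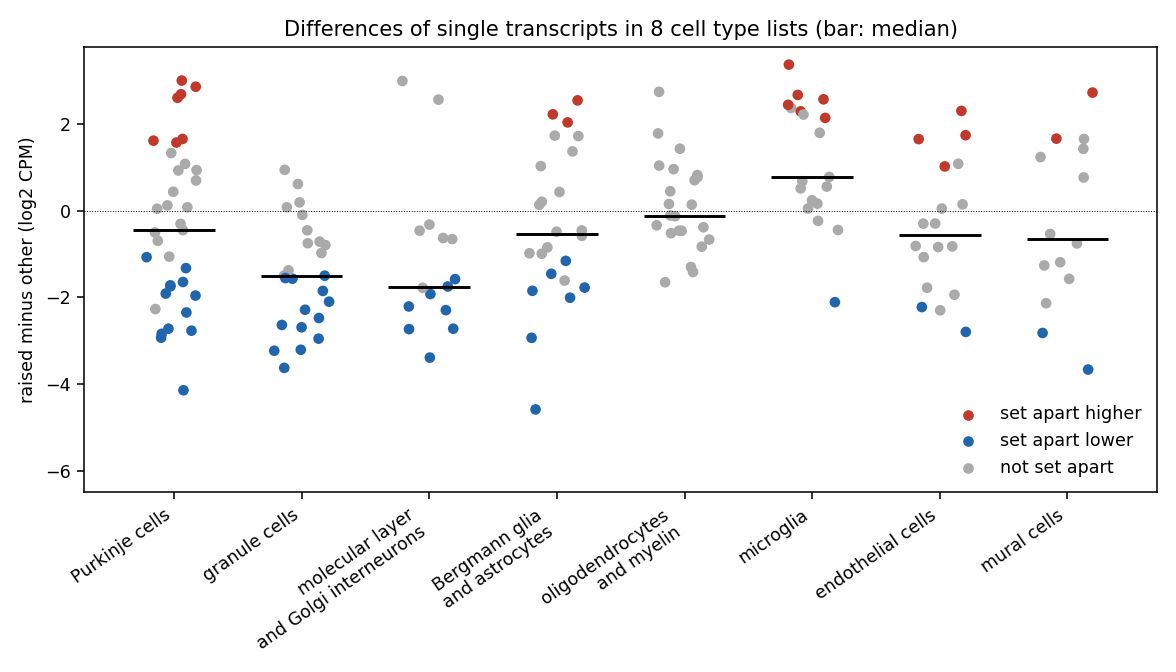
Difference in mean log2 CPM between the 5 raised and the 24 other cerebellar libraries (y axis) for single transcripts of 8 cell type lists (x axis), coloured by whether they were set apart, with the list median as a bar. Purkinje, astrocyte, microglial, endothelial and mural lists hold transcripts set apart in both directions, granule cells (13) and interneurons (8) only lower ones, and oligodendrocytes none.

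Markers of the meninges, blood and choroid plexus varied between the 5 libraries more than the ribosomal means did. The fibroblast list of the meninges had a mean of 4.70, 5.00, 5.29, 8.08 and 5.78 log2 CPM, against 2.44 to 6.49, median 4.55 in the 24. On this list 1 of 17 members, the Mgp named above, was set apart higher, below the 19.5% over all genes. The summed level of the list was 5836 to 54721 CPM in the 5 libraries and 287 to 10245 CPM in the 24. Ptgds, a prostaglandin synthase on the list, was at 5189, 6956, 8656, 48114 and 9361 CPM. Blood transcripts had means of 1.69, 4.75, 3.81, 7.26 and 4.29, against 0.44 to 4.07, median 1.71, and the globin Hbb was at 4.11, 45.4, 18.3, 567 and 38.5 CPM, against 0.148 to 34.2 CPM. Sham 48 was the highest of the 5 on both lists. Choroid plexus transcripts had means of 1.60, 2.55, 3.99, 2.26 and 1.71, against 0.76 to 2.92, median 1.37, and Ttr, the thyroxine carrier that defines this tissue, was at 20.9, 453, 8939.9, 51.6 and 11.4 CPM, against 0 to 246 CPM. High 59 was highest there. Of 12 forebrain transcripts, 2 were set apart higher, Ppp1r1b and Adora2a, and Drd1, a dopamine receptor, overlapped the 24 with a difference of -0.06 (SE 0.75). Of 6 transcripts of deep nuclei and brainstem, 1 was set apart lower. The forebrain and brainstem counts are near the shares over all genes, 19.5% higher and 20.2% lower. No tested member of these lists was at 0 in all 5 libraries. The part of these tissues in the differences above was not tested.

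Among the 24 other cerebellar libraries, each gene was fitted against the ribosomal mean with edgeR's quasi-likelihood model and exposure group as covariate, so that a slope is the log2 change of a transcript per log2 unit of that mean. The selection ranked these same ribosomal means, so the slopes are a description of the 24. After Benjamini-Hochberg adjustment, 4616 of 11946 genes were called with a positive slope (38.6%) and 4165 with a negative one (34.9%), and the median slope was 0.04. The ribosomal proteins define the mean, and their median slopes of 1.02 and 1.05 follow from that. Pcp2 had a slope of 0.87 (SE 0.044), Car8 one of 0.43 (SE 0.086) and Cox6a1, a complex IV subunit, one of 1.17 (SE 0.038). Slopes were negative for Cacna1e at -2.73 (SE 0.12), Map2 at -1.85 (SE 0.083), Shank1 at -1.28 (SE 0.082) and Itpr1 at -0.80 (SE 0.087), and Gabra6 had one of -0.10 (SE 0.079). By list, the median slope was 0.97 over complex I, 0.92 over small cytoplasmic proteins and -1.59 over long neuronal transcripts. It was -0.65 over postsynaptic, -0.49 over granule cell and 0.04 over Purkinje cell transcripts, the last near that of all genes. Over oligodendrocyte transcripts it was 0.77, with Mbp at 1.02 (SE 0.26). Without the 6 libraries with the highest ribosomal means, 262 genes were called with a positive and 377 with a negative slope, where 18 libraries were left. The 24 are also the reference of the comparison above, and the lists' values are set side by side only.

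Striatal libraries took no part in the selection and allow tests. The same fit in the 30 striatal libraries, which come from another tissue, called a positive slope on the striatal ribosomal mean in 3949 of 12267 genes (32.2%) and a negative one in 3990 (32.5%). Of the 2222 genes set apart higher in the 5 cerebellar libraries that were tested in both regions and are not ribosomal proteins, 2086 had a positive striatal slope (93.9% of these genes and 54.9% of the 3797 positive ones). Over all 11584 genes tested in both, 32.8% had one. Of the 2397 set apart lower, 2212 had a negative slope (92.3%, and 56.6% of the 3906 negative ones, which were 33.7% of all). Opposite calls numbered 4 and 0. In the striatum, sham 17, low 20 and high 13 were poor in transcripts of projection neurons, and without them 4251 genes had a positive and 4208 a negative slope. With the 5 animals' striatal libraries left out, 86.3% of the higher genes had a positive slope (62.5% of 3066, background 26.5%) and 81.9% of the lower genes a negative one (62.3% of 3150, background 27.2%). Medium 41 (9.20), sham 49 (9.14) and medium 8 (9.01) remained in that fit, with low 37 next at 8.30 log2 CPM. No striatal fit without these highest libraries was run.

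Several transcripts named for the cerebellum were called in the striatum as well. Cox8a rose with the striatal ribosomal mean at 0.95 (SE 0.04, adjusted p = 3.62e-18), Tmsb10 at 0.96 (SE 0.087, adjusted p = 1.40e-10) and Pcp2 at 0.76 (SE 0.11, adjusted p = 1.02e-06). Cacna1e fell at -2.39 (SE 0.31, adjusted p = 1.12e-07), Map2 at -1.65 (SE 0.22, adjusted p = 1.63e-07) and Shank1 at -1.44 (SE 0.29, adjusted p = 0.000103). Car8 (0.17 (SE 0.12, adjusted p = 0.187)) and Itpr1 (-0.34 (SE 0.22, adjusted p = 0.182)) did not pass. Among microglial transcripts, 11 of 19 rose and 1 fell, with Tyrobp at 0.94 (SE 0.078, adjusted p = 1.95e-11). Of the oligodendrocyte transcripts, 11 of 23 fell and 2 rose. Long neuronal transcripts had 32 negative calls of 34 and postsynaptic ones 21 of 31, with 1 positive call.

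**Figure D4:**
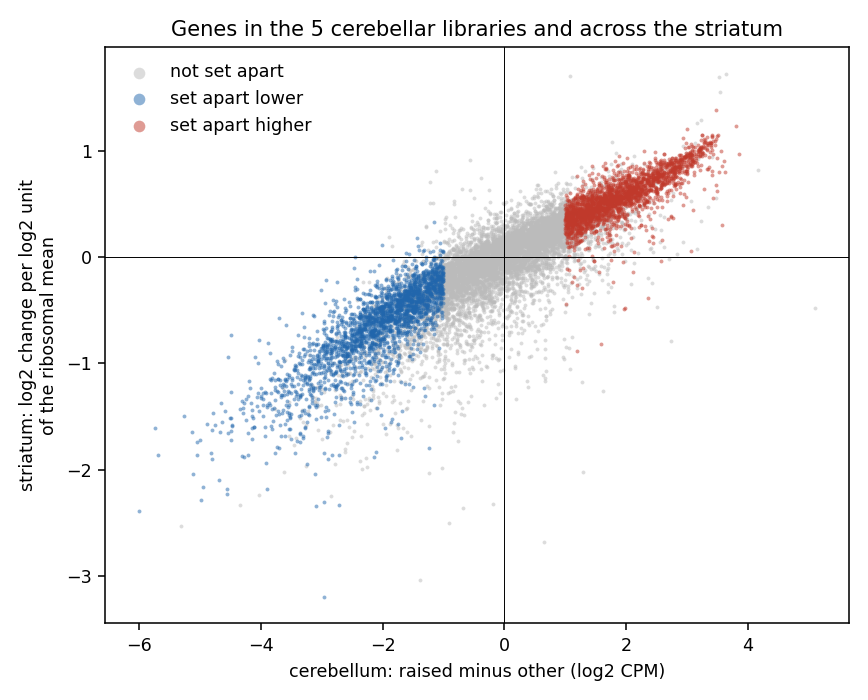
Each point is a gene tested in both regions: its difference in mean log2 CPM between the 5 raised and 24 other cerebellar libraries (x axis) and its slope on the ribosomal mean over 30 striatal libraries (y axis, log2 change per log2 unit). Genes set apart higher lie almost all above 0 and genes set apart lower almost all below 0, with 2086 and 2212 calls outside the ribosomal families.

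The animals of the 5 libraries also had striatal libraries, with ribosomal means of 8.17 (high 43), 9.73 (high 28), 8.89 (high 59), 8.68 (sham 48) and 8.57 log2 CPM (medium 24). The striatal libraries of 22 animals of the compared set ran from 7.52 to 9.20, with a median of 7.89. Of the 5, 4 were above all but medium 41 and medium 8, and high 43, highest in the cerebellum, was lowest of the 5 in the striatum. Sham 49 has no cerebellar library and is not among the 22. Its striatal ribosomal mean was 9.14, exceeded among the 5 only by high 28. The difference of 0.81 log2 units passed an exact two-sided permutation test (p = 0.00245). Their striatal totals were 5917749 to 8363820 reads, within the range of the others. Among the 22 animals themselves, the ribosomal means of both regions had a Pearson r of 0.753 (permutation p = 0.0033, 0.0066 adjusted over 2 correlations) and a Spearman rho of 0.407 (p = 0.0621, adjusted 0.0621). Without medium 41 and medium 8, r was -0.03 (permutation p = 0.886) and rho 0.21 (p = 0.371), so that the relation rests on these 2 animals.

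**Figure D5:**
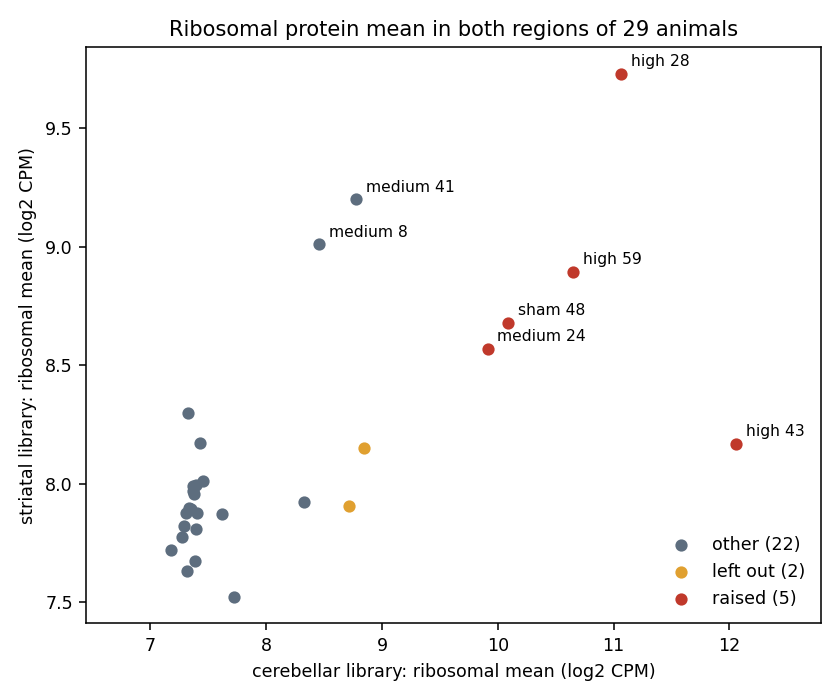
Ribosomal mean of the striatal library (y axis, log2 CPM) against that of the cerebellar library (x axis, log2 CPM) for 29 animals, coloured by the set of the cerebellar library. The 5 raised animals span 8.17 to 9.73 in the striatum, and only medium 41 and medium 8 among the 22 others exceed 9. Sham 49 (9.14 in the striatum) has no cerebellar library and is not shown.

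Across genes, the striatal libraries of the 5 animals were compared with those of the 22, with exposure as covariate. By edgeR's quasi-likelihood test with Benjamini-Hochberg adjustment, 1242 of 12318 genes were higher (10.1%) and 929 lower (7.54%). Rps19 was at 525, 1957, 1059.9, 746 and 810.3 CPM in the striatum, against 316 to 1315 CPM in the 22, a log2 fold change of 0.97 (SE 0.27, adjusted p = 0.0263). Cox8a was at 508, 1442, 786, 681 and 631 CPM, against 287 to 872 CPM, or 0.90 (SE 0.22, adjusted p = 0.0241). High 28 led in both genes, and the groups overlapped. All 74 ribosomal proteins and 10 of 11 complex IV transcripts were higher, and 18 of 34 long neuronal transcripts were lower. Postsynaptic transcripts had 6 lower and 0 higher calls of 31, and microglial ones 7 higher of 19. Cacna1e had a fold change of -1.61 (SE 0.62, adjusted p = 0.068) and Pcp2 one of 0.69 (SE 0.26, adjusted p = 0.0614), neither past the threshold. Of the genes tested in both, 893 of the 2225 set apart higher in the cerebellum were higher (40.1%, or 76.9% of 1161) and 680 of 2398 set apart lower were lower (28.4%, or 73.8% of 921), with no opposite call. These calls depend on single libraries. Without high 28, high 59 or sham 48 no gene passed, while 2758, 3746 and 3045 genes had an unadjusted p under 0.05 and DESeq2 called 211, 1140 and 480 genes higher and 161, 688 and 198 lower. With all 25 other striatal libraries as reference, 1 gene passed, with 4361 under the unadjusted threshold and 1359 higher and 1219 lower by DESeq2. Blocking on runs of 15 consecutive animal numbers left 680 higher and 348 lower, and without high 43 or medium 24 there were 3651 and 3815 calls.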

How the data were processed

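The values analysed were whole-number read counts per gene as deposited by the authors, 1 table per brain region. They rest on HISAT2 alignment to rn6 after FastQC, per the submitters' processing notes. Neither versions nor the counting tool, strand setting and annotation are stated (not given in the sources used here). All genes had at least 10 reads over the libraries of a region. The 5 libraries, the gene lists and the tests were chosen with earlier results of these data known.

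Genes passing filterByExpr were scaled by TMM, and log2 CPM used a prior count of 2. Slopes and striatal comparisons were fitted with edgeR 4.0.16 (quasi-likelihood, robust, exposure as covariate, R 4.3.3), with Benjamini-Hochberg adjustment over all genes at 0.05. Library values were tested by exact permutation. DESeq2 1.42.0, other scalings, no filter, a prior count of 0.5 and left-out libraries were alternatives. The fits were tested on simulated data. Of genes in the tables, 14063 of 14129 (cerebellum) and 14163 of 14231 (striatum) matched a symbol.

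Named genes were the 5 markers of the selection (Rps19, Rpl41, Rps16, Pcp2, Car8), up to 10 per direction with the largest difference, up to 4 per list (6 for cell types and synapses), defining cell type markers and 5 per direction in each test. Some genes that the rule names are not reported here. Eef1b2, Fau and Cox8a for the sequence windows were picked after their values were seen. Promoter windows came from RefSeq (GRCr8) by gene ID.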

Additional observations from a re-analysis of the deposited data

Results flagged for a closer look

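Within the 5 libraries, 4 of 71 values looked at had 1 library far from the other 4 by Dixon's criterion, which chance alone would give for about 5% of values. Over the Bergmann glia and astrocyte list, high 43 was lowest at 7.32 log2 CPM, with the other 4 between 7.60 and 7.71. Over the oligodendrocyte precursor list, high 43 was again lowest at 3.02 log2 CPM, with the other 4 between 3.63 and 3.83. Over the microglia list, sham 48 was highest at 4.70 log2 CPM, with the other 4 between 3.96 and 4.13. Car8, the Purkinje transcript, was highest in high 43 at 12.85 log2 CPM, with the other 4 between 11.08 and 11.24.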

How the results depend on the processing

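No paired analysis was possible because each comparison is within 1 region, where each animal number occurs once. The total number of genes set apart, the library totals, the share of high libraries, the striatal ribosomal mean and the striatal slopes kept their direction and stayed within 1.5 times, or on their side of the threshold, in every alternative run. No alternative for the striatal slopes left out medium 41, sham 49 and medium 8, which were high in striatal ribosomal mean. By direction, the genes set apart higher numbered 1415 without TMM against 2332. Those set apart lower numbered 3680 within the high loading against 2409, where fewer libraries had to lie apart. The list medians of initiation factors, forebrain neurons and chaperones changed sign without TMM, that of deep nuclei and brainstem neurons without the filter on low counts, and those of oligodendrocytes and unipolar brush cells in at least 3 alternatives each. The number of genes called in the striatum of the 5 animals (2171) was 1028 with blocks of consecutive animal numbers, 1 with all other striatal libraries as reference and 0 to 3815 when 1 animal was left out. The number of slopes called in the 24 libraries (8781) was 639 without the 6 libraries highest in ribosomal mean, an alternative added after seeing the data, as was leaving out sham 17, low 20 and high 13 in the striatum. Fewer libraries were left in those settings, and the cause was not tested. The relation to transcript or protein length was not run. At these depths a level of 1 CPM is a few reads, so ratios of the lowest transcripts, such as Cacna1e in the 5 libraries, are imprecise.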

Other observations

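Regulators and stress transcripts were also followed in the 5 cerebellar libraries, as a description. Of 19 transcripts of mTOR and amino acid signalling, 4 were set apart higher and 5 lower, shares near the 19.5% and 20.2% over all genes. Eif4ebp1, the small translation repressor that mTOR phosphorylates, was at 26.5, 19.9, 19.7, 40.7 and 15.2 CPM in high 43, high 28, high 59, sham 48 and medium 24, against a lowest of 0.318, a median of 1.94 and a highest of 8.56 CPM in the 24 others. All 5 were above the 24. The kinase itself, Mtor, was at 37.6, 38.5, 33.1, 32.9 and 30.9 CPM, against a lowest of 55.9, a median of 163 and a highest of 177 CPM, and its inhibitor Tsc1 at 3.29, 7.21, 7.14, 7.81 and 9.08 CPM, against a lowest of 18.2, a median of 64.7 and a highest of 79.9 CPM, so that both lay below all 24. In the striatum, Eif4ebp1 rose with the ribosomal mean with a slope of 1.15 (SE 0.14, adjusted p = 2.87e-08) and Mtor fell at -0.64 (SE 0.059, adjusted p = 1.83e-10), by edgeR's quasi-likelihood test.

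Of 7 variant histone transcripts, 4 were set apart higher, led by H2aj at 3.20 (SE 0.37). Of 20 chaperones and stress factors, 4 were set apart higher and 1 lower, the first near the share over all genes, with the small mitochondrial chaperone Hspe1 at 2.76 (SE 0.37) and the stress factor Atf4 at 1.66 (SE 0.23). Of 21 immediate early genes, 2 were set apart higher and 2 lower, below the 19.5% and 20.2% over all genes. Egr1 was at 3.08, 2.61, 1.61, 5.08 and 7.36 CPM, against a lowest of 10.8, a median of 20.03 and a highest of 28.7 CPM. Of the few noncoding RNAs tested, the snoRNA host Gas5 was set apart higher (1.86 (SE 0.41)) and the nuclear RNA Miat lower (-3.27 (SE 0.33)), while Meg3 overlapped the 24 (-0.63 (SE 0.23)).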
